A study of Danio rerio with 2 samples.

Results

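The complement system genes of the zebrafish heart were followed in 1 library labelled kctd10 mutant and 1 library labelled wild type. Members were chosen by gene name: C1q chains and their proteases, the lectin branch proteases, C2 and C4, the C3 paralogues, factors B and D and properdin, the terminal components, and factor H with its relatives. The group, and within it the C4 copy si:dkey-8k3.2, was selected on earlier results of these same libraries, so its counts and medians below are descriptions and carry no test. The rule matched 37 of the 26126 gene identifiers listed. Of these 35 had at least 10 counts summed over both libraries and are the members, out of 24009 genes with that many counts. The members nearest to this minimum were C1S (1 of 2) with 18 counts and c1qb with 22, and the names left out below it were C1R with 7 counts and cfhl3 with 3.

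Both libraries were made from total RNA of hearts at 48 hours post fertilization (hpf), in fish of the AB background. One group carried the genotype kctd10 -/- and the other was wild type, and the labels name no treatment. The sources used here give neither the kctd10 lesion nor the number of hearts in a library. With 1 library per genotype, every ratio below compares a pair of libraries and has no replicate check.

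Complement is a cascade of blood plasma proteins that marks particles and cells for uptake and can perforate membranes. It is started by C1q with its proteases, by lectins with the MASP proteases, or by the alternative pathway with factors B and D, and all routes meet at the cleavage of C3. C5 to C9 then assemble the membrane attack complex, while factor H and related proteins restrain C3 cleavage in the fluid and on host surfaces. In mammals most of these proteins are secreted by hepatocytes, C1q mainly by macrophages and factor D by adipocytes. Teleost fish keep several C3 genes. The roles given below for single genes are those of the mammalian proteins.

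The library labelled mutant held 139099775 counts assigned to genes and the library labelled wild type 150001992. Counts were scaled with TMM, a normalization that takes most genes as unaltered, and are given as CPM, the counts divided by the scaled library size and put on a common total. These values are not divided by gene length, so levels of different genes are not compared. For each gene the ratio of mutant over wild type is given with its 95% Clopper-Pearson interval from both counts. The interval covers counting error only, since each genotype has 1 library. The sources used here do not say whether PCR copies of 1 molecule were counted as separate reads. If they were, the interval is too narrow even for counting error. A gene was called higher if its entire interval exceeded 1.5-fold, and lower if its entire interval was under the inverse of 1.5-fold. Sarcomere transcripts were abundant: vmhc, the ventricular myosin heavy chain, had 455687 counts in the library labelled mutant and 323839 in the library labelled wild type. Larval skin transcripts were abundant too. The skin keratin gene krt4 had 2975239 counts in the library labelled mutant and 4500426 in the library labelled wild type. Both libraries thus held heart transcripts beside those of skin. The kctd10 transcript itself had 19942 counts in the library labelled mutant and 8226 in the library labelled wild type, a ratio of 2.57 (2.50 to 2.64), so its level does not check the genotype labels. In bulk RNA, fewer cells of a type and less RNA per cell cannot be told apart.

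Of the 35 members 25 were called higher (71.4%), 2 lower and 8 neither, where 6.03% of all measured genes were called higher and 6.66% lower by the same rule. The higher members were all 9 C3 paralogues, 8 of 9 terminal components, all 4 factor H genes, si:dkey-8k3.2, C2, cfb and masp2. The lower ones were MASP1 and cfd. The members together held 197473 counts in the library labelled mutant (0.142% of its gene counts) and 57820 in the library labelled wild type (0.0385%). Their sum was thus 3.62-fold higher (3.58 to 3.65) and, with c3a left out because it held the most counts, 3.45-fold higher (3.41 to 3.49). The median log2 ratio of the members was 1.38, with an order-statistic interval of 1.03 to 2.02 over members, beside 0.00084 for all measured genes. Such intervals over genes, here and below, take the genes of a group as separate draws. Genes are not replicates and copies may share reads, so these intervals do not measure the uncertainty of a genotype effect.

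The members' log2 ratios differed widely. In 7 members the whole interval lay above 4-fold and in 4 of these above 10-fold: si:dkey-8k3.2, C7 (2 of 2), c3b and c3c. These 4 ranked among the 50 highest log2 ratios of all 24009 genes, at positions 18, 24, 37 and 42, and 14 members ranked among the 500 highest. At the other end the interval of 5 members included 1. Summed counts ranged from 18 to 75885 per member with a median of 2229, and the 25 members with at least 1000 counts (19 higher, 2 lower) had a median log2 ratio of 1.37, close to that of all members. Among all 14685 genes with that many counts 5.40% were called higher.

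**Figure D1:**
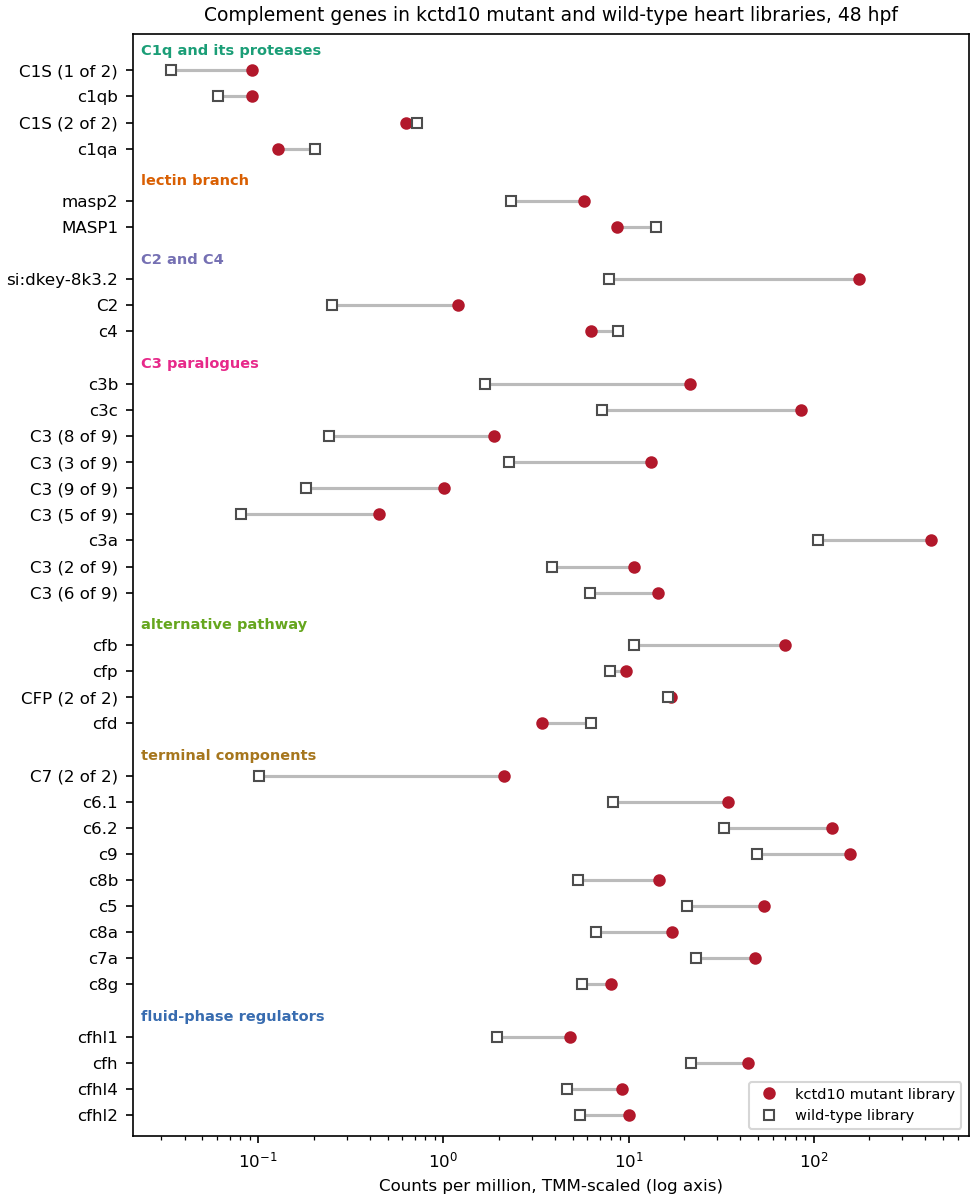
Level of each of the 35 complement genes in the library labelled mutant and the library labelled wild type, on a log axis of CPM, ordered by role. Each point is 1 library. The C3 paralogues and most terminal components lie higher in the library labelled mutant, while cfd and MASP1 lie lower there.

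**Figure D2:**
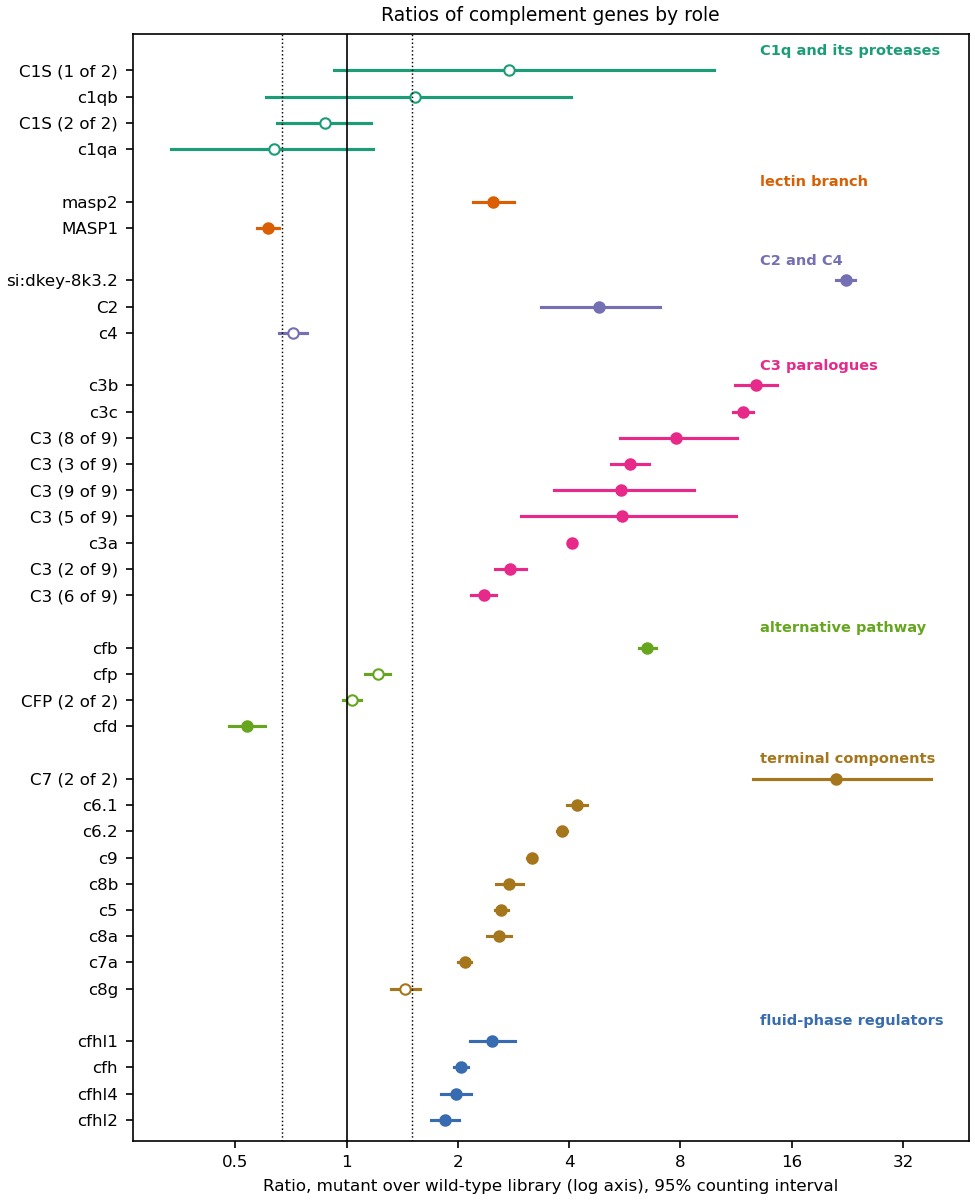
Ratio of mutant over wild type, on a log axis, for each complement gene with its 95% counting interval, ordered by role. Filled points were called higher or lower and open points were not, and the dotted lines mark 1.5-fold in either direction. All 9 C3 paralogues lie to the right of the line, and all 4 genes of C1q and its proteases are open points.

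The genes of the C1q chains and their proteases had 18 to 195 summed counts. None of the 4 measured genes was called, and their median log2 ratio was 0.20. Relative to the cardiac sarcomere genes it was -0.14, beside -0.34 for all measured genes. The A chain gene c1qa had 18 counts in the library labelled mutant and 30 in the library labelled wild type, a ratio of 0.636 (0.334 to 1.18). The B chain gene c1qb had 13 counts in the mutant and 9 in the wild type (ratio 1.53, 0.605 to 4.06). Both intervals include 1, so no difference was detectable at this depth for either chain. C1s, the protease that cleaves C4 and C2, has a pair of copies in the files. C1S (1 of 2) had 13 counts in the mutant and 5 in the wild type (2.75, 0.921 to 9.87). C1S (2 of 2) had 88 in the mutant and 107 in the wild type (0.871, 0.650 to 1.17). The sum of both copies had a ratio of 0.955 (0.723 to 1.26). The C1r protease gene C1R, which activates C1s, had 5 counts in the mutant and 2 in the wild type and was not measured.

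The proteases of the lectin branch were called in opposite directions, although the call of MASP1 depended on the settings. MASP-2 cleaves C4 and C2 once a lectin has bound a sugar surface. Its gene masp2 had 806 counts (5.74 CPM) in the library labelled mutant and 343 (2.31 CPM) in the library labelled wild type, and was called higher at 2.49-fold (2.19 to 2.83). MASP-1 activates MASP-2, and in mammals its gene also yields other splice forms, which counts per gene do not separate. MASP1 had 1216 counts in the mutant and 2103 in the wild type and was called lower, with a ratio of 0.613 (0.570 to 0.658). This call was lost with library totals, at a 2-fold limit and with a 99% interval. No identifier of the files is named mbl2, the mannose-binding lectin; the current table of gene names gives that symbol to the identifier named hbl3, which had 8 counts in the mutant and 17 in the wild type (ratio 0.499, 0.186 to 1.22).

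In a list of lectin-type recognition proteins, 3 of 16 measured genes were called higher and none lower, with a median log2 ratio of -0.055 and summed levels of 191 CPM in the mutant and 154 CPM in the wild type. Collectin-11, which binds MASP proteases in mammals, was among them: colec11 had 683 counts in the mutant and 317 in the wild type (2.28-fold, 1.99 to 2.62). The hexose-binding lectin gene hbl4 had 404 counts in the mutant and 222 in the wild type (1.93-fold, 1.63 to 2.28). The galectin gene lgals9l1 had 1065 counts in the mutant and 215 in the wild type, a ratio of 5.25 (4.53 to 6.10). The most counted gene of this list, the scavenger receptor collectin colec12, was not called, with 15914 counts in the mutant, 12019 in the wild type and a ratio of 1.40 (1.37 to 1.44). Not all of the list is soluble: colec12, a membrane protein, made up 113 CPM of the sum in the mutant and 80.8 CPM in the wild type. The intracellular cargo receptor lman1 made up 38.8 CPM in the mutant and 40.3 CPM in the wild type.

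C4 and C2 form the C3 convertase of the classical and lectin routes, and the C4 copies differed most sharply within any role. The copy si:dkey-8k3.2, which the current table names c4b, had 24765 counts (176 CPM) in the library labelled mutant and 1169 counts (7.86 CPM) in the library labelled wild type. Its ratio of 22.4 (21.2 to 23.8) was the highest of all members. The copy c4 had 884 counts in the mutant and 1309 in the wild type and was not called, with a ratio of 0.715 (0.656 to 0.780). It was called lower relative to the cardiac sarcomere genes (log2 ratio -0.82) and to the liver-secreted genes (-1.44), both described further on. Of the counts of both copies, si:dkey-8k3.2 took 96.6% (96.3 to 96.8) in the mutant and 47.2% (45.2 to 49.2) in the wild type. The sum of both was 10.97-fold higher (10.5 to 11.4). C2, the protease subunit of that convertase, had 168 counts in the mutant and 37 in the wild type and was called higher at 4.81-fold (3.35 to 7.07).

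All 9 C3 paralogues were called higher, with a median log2 ratio of 2.45 and an order-statistic interval of 1.47 to 3.57 over copies, which are not replicates. C3 is the protein whose fragments tag surfaces and whose cleavage starts the terminal route. The most counted copy, c3a, had 60204 counts (429 CPM) in the library labelled mutant and 15681 counts (105 CPM) in the library labelled wild type, a ratio of 4.07 (4.0 to 4.14). The copy named c3c in the files had 12018 counts in the mutant and 1075 in the wild type, 11.8-fold (11.1 to 12.6). The copy named c3b in the files had 3013 counts in the mutant and 249 in the wild type, 12.8-fold (11.3 to 14.6). The current table calls these genes c3a.1, c3a.3 and c3a.2, so the files' c3b does not belong to the pair now named c3b.1 and c3b.2.

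The other C3 copies that the current table groups under c3a lay between these values. C3 (8 of 9), now c3a.4, had 265 counts in the mutant and 36 in the wild type (7.80-fold, 5.49 to 11.4). C3 (3 of 9), now c3a.6, had 1848 in the mutant and 335 in the wild type (5.84-fold, 5.2 to 6.58). Both were higher by more than c3a, whose interval lies below theirs. C3 (5 of 9), now c3a.5, had 63 counts in the mutant and 12 in the wild type (5.56-fold, 2.97 to 11.3). C3 (9 of 9), which has no current symbol, had 141 in the mutant and 27 in the wild type (5.53-fold, 3.65 to 8.69). The pair now named c3b.2 and c3b.1 had the lowest ratios of the group. C3 (2 of 9) had 1502 counts in the mutant and 574 in the wild type (2.77-fold, 2.52 to 3.06), and C3 (6 of 9) had 2031 in the mutant and 916 in the wild type (2.35-fold, 2.17 to 2.54).

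The sources used here do not say how reads matching several genes were counted, so the split between near-identical copies is uncertain and sums are given beside it. Over all 9 copies there were 81085 counts in the mutant and 18905 in the wild type, 4.54-fold (4.47 to 4.62). The 6 copies now under c3a summed to 4.72-fold (4.64 to 4.79), and the pair now under c3b to 2.51-fold (2.36 to 2.67), so both branches were higher. The share of C3 counts taken by c3a was 74.2% (73.9 to 74.5) in the mutant and 82.9% (82.4 to 83.5) in the wild type. The share of c3c was 14.8% (14.6 to 15.1) in the mutant and 5.69% (5.36 to 6.03) in the wild type.

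The alternative pathway gave 1 gene higher, 1 lower and 2 neither, with a median log2 ratio of 0.16. Relative to the cardiac sarcomere genes this median was -0.17, beside -0.34 for all measured genes. Factor B, the protease of the alternative C3 convertase, had 9784 counts (69.7 CPM) for cfb in the library labelled mutant and 1595 counts (10.7 CPM) in the library labelled wild type, 6.5-fold (6.16 to 6.86). Factor D cleaves factor B, and its gene went the other way. For cfd there were 476 counts in the mutant and 936 in the wild type, a ratio of 0.539 (0.481 to 0.602), a call that was lost at a 2-fold limit. Properdin stabilizes that convertase, and neither of its copies was called. The gene cfp had 1352 counts in the mutant and 1180 in the wild type (1.21, 1.12 to 1.31), and CFP (2 of 2) had 2382 in the mutant and 2437 in the wild type (1.04, 0.978 to 1.1). The gene bfb, named as a further factor B copy but outside the naming rule, was higher as well, with 95 counts in the mutant and 32 in the wild type (3.14-fold, 2.09 to 4.85).

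Of the 9 terminal components 8 were called higher and none lower, with a median log2 ratio of 1.46. C5, whose cleavage starts the membrane attack complex, had 7615 counts in the library labelled mutant and 3079 in the library labelled wild type, 2.62-fold (2.51 to 2.73). C6 joins C5b, and the files hold 2 identifiers named c6, which the current table separates as c6.1 and c6.2. The identifier c6.1 had 4864 counts in the mutant and 1228 in the wild type (4.20-fold, 3.94 to 4.47), and c6.2 had 17657 in the mutant and 4888 in the wild type (3.83-fold, 3.71 to 3.95). Both were higher by a similar factor, and their sum was 3.90-fold (3.79 to 4.01). C7 anchors the growing complex in the membrane, and its copies differed in size of ratio. The copy c7a had 6749 counts in the mutant and 3430 in the wild type (2.08-fold, 2.0 to 2.17). C7 (2 of 2), now c7b, had 298 counts (2.12 CPM) in the mutant and 15 counts (0.101 CPM) in the wild type, 21.0-fold (12.6 to 38.1). It took 4.23% (3.77 to 4.73) of the C7 counts in the mutant and 0.435% (0.244 to 0.717) in the wild type, and both copies together were 2.17-fold higher (2.08 to 2.26).

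C8 is built of 3 chains, of which the alpha and beta chains insert into the membrane and the gamma chain is a lipocalin. The alpha chain gene c8a had 2405 counts in the mutant and 988 in the wild type (2.58-fold, 2.39 to 2.78). The beta chain gene c8b had 2058 in the mutant and 791 in the wild type (2.76-fold, 2.54 to 3.0). The gamma chain gene c8g had 1135 in the mutant and 834 in the wild type and was not called (1.44, 1.32 to 1.58). The interval of c8g lies below those of c8a and c8b. C9 forms the ring of the pore, and c9 had 22025 counts (157 CPM) in the mutant and 7368 counts (49.6 CPM) in the wild type, 3.17-fold (3.08 to 3.25).

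The factor H genes were called higher by 1.85- to 2.48-fold, but 2 of the 4 calls were lost relative to the cardiac sarcomere genes and all 4 relative to the liver-secreted genes described further on, where the log2 ratio of cfhl2 was -0.072. Factor H limits C3 cleavage, and cfh had 6229 counts in the library labelled mutant and 3239 in the library labelled wild type, 2.04-fold (1.95 to 2.13). Among its relatives cfhl1 had 676 counts in the mutant and 289 in the wild type (2.48-fold, 2.16 to 2.85). The gene cfhl4 had 1295 in the mutant and 694 in the wild type (1.98-fold, 1.80 to 2.17), and cfhl2 had 1417 in the mutant and 812 in the wild type (1.85-fold, 1.69 to 2.02). The 4 measured genes summed to 2.02-fold (1.96 to 2.09). In cfhl3, below the count minimum, there were 3 counts in the mutant and 0 in the wild type. The related gene cfhl5, which the naming rule does not include, had 559 counts in the mutant and 305 in the wild type (1.94-fold, 1.69 to 2.24).

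Receptors and other regulators of complement were mixed. Of 19 measured genes 8 were called higher and 2 lower, with a median log2 ratio of 0.39 (-0.57 relative to the liver-secreted genes) and summed levels of 754 CPM in the library labelled mutant and 623 CPM in the library labelled wild type. The plasma regulators were on the higher side. The gene clu, for clusterin, had 4211 counts in the mutant and 1101 in the wild type (4.05-fold, 3.79 to 4.33). The gene serping1, for the C1 inhibitor, had 2133 in the mutant and 624 in the wild type (3.62-fold, 3.31 to 3.97). Vitronectin, which binds terminal complexes, has the copies vtna at 2.14-fold (2.0 to 2.29) and vtnb at 2.08-fold (1.99 to 2.17). The receptors carried by myeloid cells were partly higher. C5AR1, for the C5a receptor, had 129 counts in the mutant and 38 in the wild type (3.60-fold, 2.49 to 5.31). Of the integrin subunits of the C3 fragment receptor, itgb2 was higher at 2.61-fold (2.35 to 2.90) and the alpha subunit copy si:dkey-32n7.4 at 2.88-fold (2.52 to 3.30). The alpha subunit copy itgam was not called, with 110 counts in the mutant and 88 in the wild type (1.32, 0.991 to 1.77). CD93 was higher at 1.88-fold (1.74 to 2.04).

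The other receptors and regulators were not called higher. The most counted, calr for the chaperone and C1q receptor calreticulin, had 37299 counts in the mutant and 36572 in the wild type (1.08, 1.06 to 1.1). C3AR1, for the C3a receptor, had 41 counts in the mutant and 33 in the wild type (1.32, 0.812 to 2.15). The membrane-bound regulator rca2.1 had 7332 counts in the mutant and 7526 in the wild type, a ratio of 1.03 (0.999 to 1.07), and rca2.2 had 461 in the mutant and 460 in the wild type (1.06, 0.931 to 1.21). Neither of these regulators carried on host cells came near the 1.5-fold limit, while the soluble factor H genes were all called higher; the difference between the groups was not tested. The genes called lower, sez6a (0.272, 0.219 to 0.335) and CSMD3 (2 of 2) (0.368, 0.198 to 0.649), encode proteins with complement control domains that are known from neurons.

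In the gene order of the current zebrafish assembly GRCz12tu, which is not the build of the files and was used for order only, 31 of the 35 members could be placed. A total of 20 members lay in 8 runs with no other measured gene matched between them. C3 (3 of 9), C3 (5 of 9) and c3a formed a run, and c3b and c3c another. The order c6.1, C7 (2 of 2), c6.2 formed a run in which the middle member had a higher ratio than the members on either side. Other annotated genes, none matched to a measured gene, lay between c6.1 and C7 (2 of 2). Of the 38 different measured genes next to members 6 were called higher and 5 lower, and their median log2 ratio was 0.030. Among all measured genes 6.03% were called higher and 6.66% lower. The higher ones included the relatives cfhl5 and bfb, together with si:ch73-343l4.2 beside the c3a run (3.59-fold), oxct1b beside c6.1 (2.18-fold), si:ch211-188c16.1 beside c8a (2.23-fold) and msrb2 beside c8g (1.81-fold). The lower ones were dab1b beside c8b, with a ratio of 0.481, ptgdsb beside c8g (0.573) and si:dkey-27n14.1 beside si:dkey-8k3.2 (0.219). The others were sst1.1 beside MASP1 (0.433) and C13H20orf194 beside cfd (0.602), both next to members called lower.

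**Figure D3:**
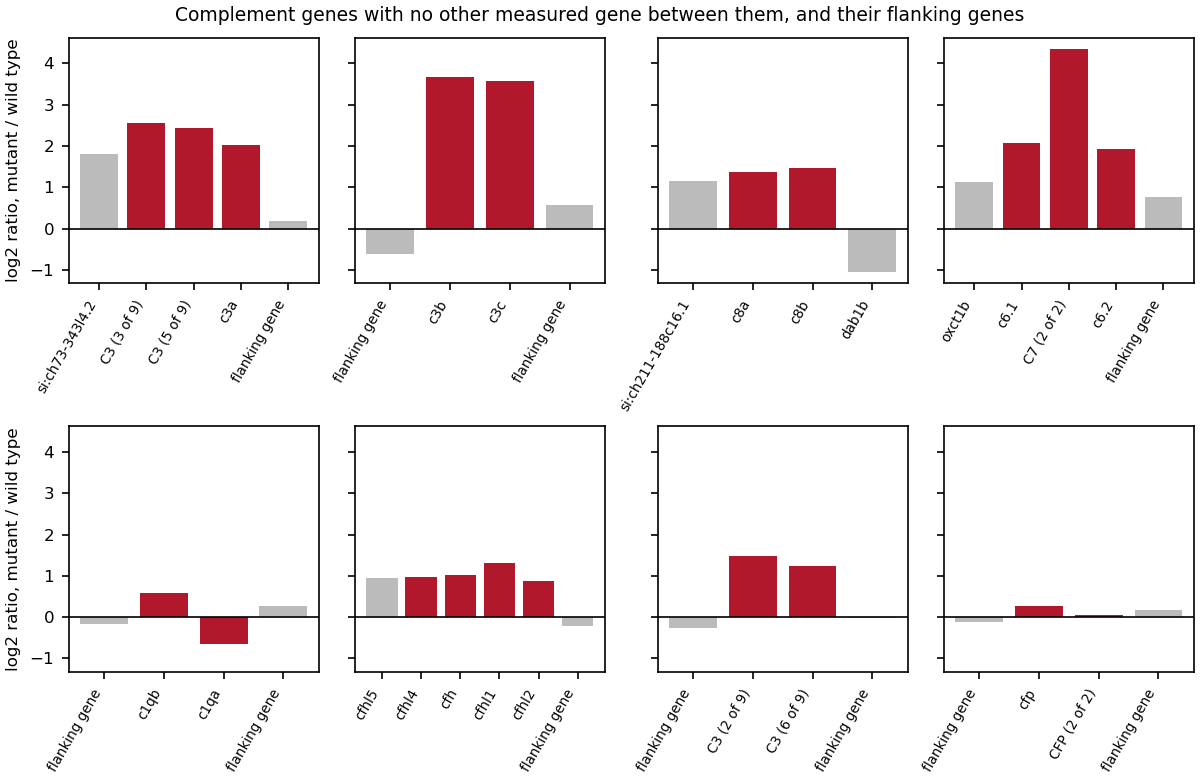
Log2 ratio of mutant over wild type (vertical axis) for the 8 runs of complement genes with no other measured gene matched between them, in the gene order of GRCz12tu. Red bars are complement members and grey bars the nearest measured gene on either side, named where it was called. C7 (2 of 2) reaches 4.35 between c6.1 at 2.07 and c6.2 at 1.94, and dab1b beside the C8 genes lies at -1.06.

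Genes of other plasma proteins that the liver secretes were also higher in the library labelled mutant. Of 57 measured genes outside complement 38 were called higher (66.7%) and 1 lower, with a median log2 ratio of 0.96 (0.84 to 1.08 over genes) and summed levels of 14050 CPM in the mutant and 7464 CPM in the wild type. The most counted, the apolipoprotein B gene apobb, had 426639 counts in the mutant and 165051 in the wild type (2.74-fold, 2.72 to 2.75). Ceruloplasmin, a copper carrier, had 17673 counts for cp in the mutant and 4875 in the wild type (3.84-fold, 3.72 to 3.96). The vitamin D binding protein gene gc had 45 in the mutant and 7 in the wild type (6.81-fold, 3.05 to 17.9). One of the identifiers matched to cpn1 had 41 counts in the mutant and 0 in the wild type. The hepatocyte marker fabp10a was near 0 in both libraries, with 14 counts in the mutant and 8 in the wild type, and the liver and lymphatic factor prox1a was the lower gene (0.496, 0.482 to 0.510). The part of liver RNA in the complement result was not tested.

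Genes of the yolk syncytial layer, the embryonic tissue that exports yolk lipoproteins, were higher in 8 of 15 cases and lower in none. Their median log2 ratio was 0.72 (-0.24 relative to the liver-secreted genes), and their summed level was 7841 CPM in the mutant and 4409 CPM in the wild type. Besides apobb, the layer's homeobox gene mxtx1 had 166 counts in the mutant and 8 in the wild type (22.0-fold, 10.9 to 51.8), and gata4, which the heart also expresses, had 8316 in the mutant and 4287 in the wild type (2.05-fold, 1.98 to 2.13). This list shares apobb, other apolipoprotein genes and a transcription factor gene with the liver-secreted list, so the values of these lists are not independent. The part of the yolk syncytial layer in the complement result was not tested.

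Macrophage markers were higher in 14 of 23 cases and lower in none, with a median log2 ratio of 1.38 and summed levels of 253 CPM in the mutant and 114 CPM in the wild type. Relative to the liver-secreted genes their median was 0.42, with 8 called higher and 4 lower. The scavenger receptor gene marco had 442 counts in the mutant and 61 in the wild type (7.68-fold, 5.86 to 10.2). The mannose receptor gene mrc1b had 1034 in the mutant and 169 in the wild type (6.48-fold, 5.50 to 7.67), and the cathepsin gene ctssb.1 3609 in the mutant and 818 in the wild type (4.67-fold, 4.33 to 5.05). The most counted marker, CD68, was not called (1.52, 1.46 to 1.57), and the C1q chains above, a macrophage product in mammals, were not called either. Neutrophil markers were higher in 11 of 16 cases and lower in none, with a median log2 ratio of 0.78 (-0.18 relative to the liver-secreted genes) and summed levels of 369 CPM in the mutant and 232 CPM in the wild type. The lysozyme gene lyz had 16204 counts in the mutant and 9957 in the wild type (1.72-fold, 1.68 to 1.77). The part of these blood cells in the complement result was not tested.

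Markers of the other tissues that a dissected heart could carry were not all on the higher side. Of 13 epicardial markers 7 were higher and 1 lower, with a median log2 ratio of 0.79 (-0.17 relative to the liver-secreted genes) and summed levels of 3741 CPM in the mutant and 2871 CPM in the wild type. The Wilms tumour gene wt1b led them, with 1330 counts in the mutant and 341 in the wild type (4.13-fold, 3.67 to 4.67). The most counted one, the keratin gene krt8, was not called (1.258, 1.252 to 1.265). It made up 2336 CPM of the sum in the mutant and 1856 CPM in the wild type, and the larval skin list holds it too. Of 25 fibroblast and mesenchyme markers 6 were higher and 4 lower, with a median of -0.028 and summed levels of 7866 CPM in the mutant and 11108 CPM in the wild type. The most counted of them, the collagen gene col1a1a, was lower (0.544, 0.542 to 0.547). Of 21 larval skin markers 2 were higher and 2 lower, with a median of -0.26 and summed levels of 37185 CPM in the mutant and 50905 CPM in the wild type. The most counted of them, the keratin gene krt4, was not called (0.700, 0.699 to 0.701). Of 34 genes listed as cardiac sarcomere genes 9 were higher and 6 lower, with a median of 0.34 (-0.62 relative to the liver-secreted genes) and summed levels of 18890 CPM in the mutant and 14962 CPM in the wild type. These genes did not move together: lmod2a (2.11) and desma (1.88) were higher, while tpma (0.155) and tcap (0.103) were lower. Whether each of them is confined to the heart was not tested. The part of these tissues in the complement result was not tested.

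**Figure D4:**
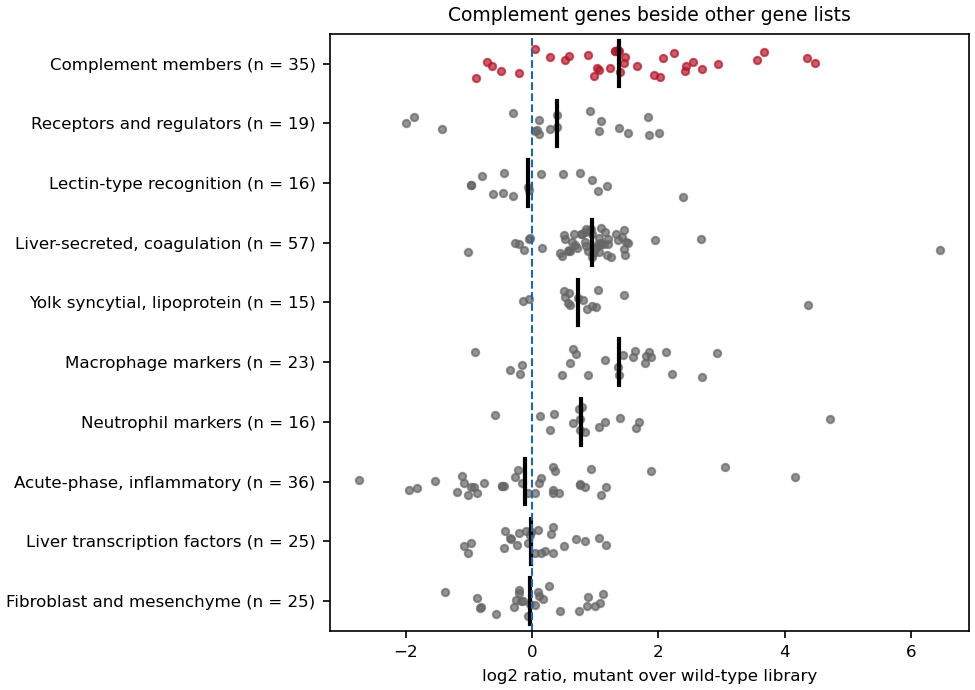
Log2 ratio of mutant over wild type for each measured gene of the complement members and of the other gene lists. Each point is 1 gene, black bars are list medians, and the dashed line is the median of all measured genes. The medians of the complement members and of the macrophage markers are both 1.38, that of the liver-secreted genes is 0.96, and that of the fibroblast markers is -0.028.

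The genes listed as acute-phase and inflammatory, a set that in mammals includes inducers of complement in liver, showed no shared direction. Many of them encode signals and regulators. Plasma proteins such as ceruloplasmin (cp, 3.84-fold) were counted in the liver-secreted list, where 38 of 57 genes were higher and 1 lower. Of 36 measured genes 9 were higher and 11 lower, with a median log2 ratio of -0.11 and summed levels of 1200 CPM in the library labelled mutant and 1541 CPM in the library labelled wild type. The interleukin 11 genes were the highest. The gene il11a had 3341 counts in the mutant and 425 in the wild type (8.33-fold, 7.53 to 9.23), and il11b had 382 in the mutant and 22 in the wild type (18.4-fold, 11.97 to 29.7). The prostaglandin synthase gene ptgs2a had 6035 in the mutant and 24532 in the wild type (0.261, 0.253 to 0.268), and the AP-1 gene junba 10822 in the mutant and 40591 in the wild type (0.282, 0.276 to 0.288).

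The transcription factors known for the expression of complement in mammalian liver were mixed as well, with 4 of 25 called higher, 2 lower and a median log2 ratio of -0.017. Their summed levels were 872 CPM in the mutant and 949 CPM in the wild type. Among them stat3, which relays interleukin 6 family signals, had 11762 counts in the mutant and 5553 in the wild type (2.24-fold, 2.17 to 2.32). The gene cebpa had 5140 counts in the mutant and 3044 in the wild type (1.79-fold, 1.71 to 1.87). Its relative cebpb had 8235 in the mutant and 18405 in the wild type (0.474, 0.462 to 0.486). The most counted factor of the list, nr2f2, was not called (0.936, 0.920 to 0.951).

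Because the ratios depend on what is held level, they were also given relative to other gene lists. With the median of the cardiac sarcomere genes set to 0, all log2 ratios shifted by -0.34, and 23 members were called higher and 3 lower, beside 754 genes higher and 3800 lower among all measured genes. Genes of the sarcomere list were called in both directions under TMM, so its median does not stand for each of them. With the median of the liver-secreted genes set to 0, the shift was -0.96, and 14 members were higher and 6 lower, beside 236 higher and 16042 lower among all measured genes. Relative to the liver-secreted genes the C3 paralogues kept a median log2 ratio of 1.49 with 7 of 9 higher. The terminal components then had one of 0.50 with 4 of 9 higher, and the factor H genes one of 0.047 with none called. In the same scaling the 3 genes of C2 and C4 had a median of 1.29, which is the value of C2, with 2 higher and 1 lower. The lower one was c4, at -1.44, and it was also called lower relative to the sarcomere genes (-0.82). The medians of the C1q group, the lectin branch and the alternative pathway were negative under both scalings. They were -0.14, -0.034 and -0.17 relative to sarcomere genes and -0.76, -0.65 and -0.79 relative to liver-secreted genes. The median of all measured genes was lower still, at -0.34 relative to sarcomere genes and -0.96 relative to liver-secreted genes. Relative to the liver-secreted genes the log2 ratios of c1qb (-0.37), cfp (-0.68), CFP (2 of 2) (-0.91) and c8g (-0.43), none of them called under TMM, were negative too.

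**Figure D5:**
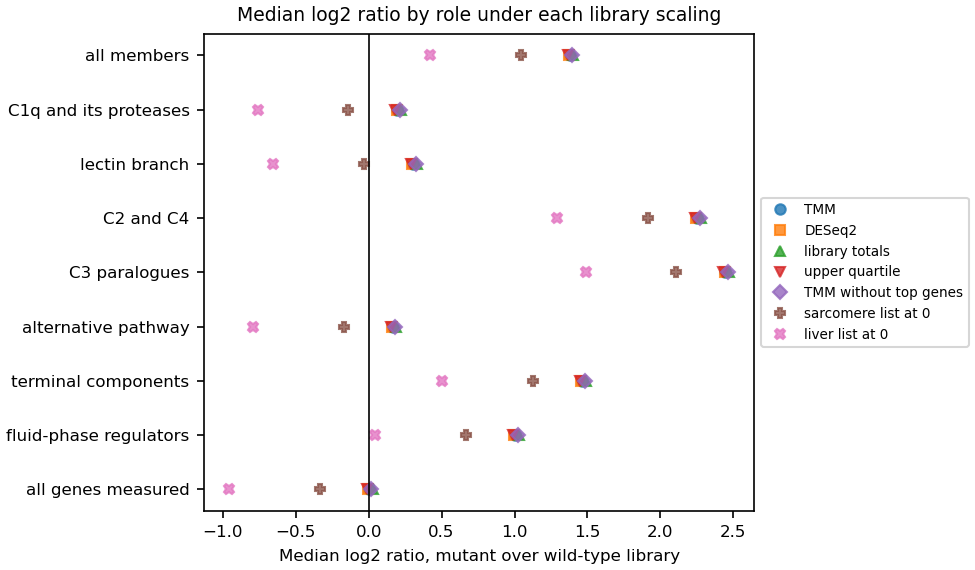
Median log2 ratio of mutant over wild type for all members, each role of complement genes and all measured genes, under each library scaling. Besides TMM these are DESeq2, library totals, upper quartile and TMM without the most counted genes. The others set the median of the cardiac sarcomere or of the liver-secreted genes to 0. Each point is the median of 1 group of genes under 1 scaling. The C3 paralogues stay at 1.49 or above in all scalings, and the factor H genes lie at 0.047 relative to the liver-secreted genes.

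In the authors' deposited table of Ensembl genes, 12 of the 35 members had an adjusted p-value under 0.05, all of them higher, beside 442 of all 24009 measured genes (1.84%). Those p-values come from 1 library per genotype. The authors' deposited table of UniGene clusters held 25 clusters described as complement genes, 9 of them without a symbol. Its fold column is headed OE over CON and was read as mutant over wild type, since the folds of shared symbols in that table lie near the ratios computed here. In the authors' deposited table a fold above 1.5 was listed for 22 of these clusters and a fold below the inverse of 1.5 for 1 (cfdl, 0.55), with a median of 2.48. The share of all clusters past these limits was not computed, so these counts have no background beside them. Several clusters carry the same description, so the clusters are not all separate genes. A cluster for cfi, the factor I protease that degrades C3b, had a fold of 2.48 in the authors' deposited table and has no identifier of that name among the Ensembl genes.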

How the data were processed

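Total RNA of hearts was made into TruSeq libraries, 1 per genotype, per the labels' protocols. TopHat, DESeq and the build Zv9 are named without versions, per the submitters' processing notes; no counting tool, strand setting or rule for reads matching several genes is given in the sources used here. The deposited values per Ensembl gene are raw read counts. The line of reads assigned to no feature was left out; it made up 9.17% of the mutant library and 9.21% of the wild-type library. The authors' deposited comparisons give a fold (ratio), a log2 fold and, for Ensembl genes, p-values raw and adjusted, per the file headers. A further 6 columns of per-sample values, with names that no label matches, stayed unused.

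Library sizes were scaled by TMM (edgeR 4.0.16, R 4.3.3) over genes with at least 10 counts, giving effective sizes of 140343348 (mutant) and 148672835 (wild type). Ratios and exact 95% Clopper-Pearson intervals were computed in Python 3.11.15 with scipy 1.17.1, and figures with matplotlib 3.10.9. Log2 ratios add 0.5 to each count. No test between genotypes was run. A count of 0 allows up to 3 counts, 0.0214 CPM in the mutant library and 0.0202 CPM in the wild-type library. The calling steps were tested on simulated counts. Alternatives included DESeq2 1.42.0 size factors.

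The members and lists were chosen with earlier results of these data known. Of 373 entries in 12 lists 309 (82.8%) matched a name in the files or the current table. Every member is named. From other lists the text names the most counted gene and up to 3 higher and 3 lower genes whose interval lies farthest from no change, any of the receptors and regulators, and neighbours only where called; fabp10a, lman1, hbl3, bfb, cfhl5 and the clusters cfi and cfdl were chosen after their values were seen. One gene that this rule picks from the lists other than complement is not reported here. Levels per coding length, protein identity and promoter motifs were planned and not analysed here.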

Additional observations from a re-analysis of the deposited data

How the results depend on the processing

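With 1 library per genotype, no count above separates genotype from any other difference between a pair of heart collections. No paired analysis was possible because each genotype has 1 library. Under the DESeq2, upper-quartile, library-total and top-gene-free scalings, other count minimums, fold limits and intervals, and the authors' folds, 22 to 27 members were higher. Relative to the sarcomere genes 23 were higher. The count of higher members was 14 relative to the liver-secreted genes, 15 of 23 entries with copies summed, and 16 without the C3 paralogues, an alternative chosen after seeing the data. The count of lower members was 1 with library totals and 1 with a 99% interval, where MASP1 was not called, 0 at a 2-fold limit and 6 relative to the liver-secreted genes. The median log2 ratio of members was 0.42 relative to the liver-secreted genes and 1.04 relative to the sarcomere genes. Relative to the liver-secreted genes only 2 members stayed within their counting interval. In that scaling c1qb, cfp, CFP (2 of 2), c8g and the called gene cfhl2 (-0.072) changed sign. The liver-secreted and sarcomere values follow from a shift common to all genes.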
